A study of Homo sapiens with 5 samples.

Results

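Mitochondrial ribosomal protein genes encode the proteins of the ribosome inside mitochondria, and they were taken here as every gene whose symbol is MRPL or MRPS followed by its number and, for paralogs, a letter. This rule found 74 of the 57773 gene rows, 46 of the large subunit (MRPL) and 28 of the small subunit (MRPS), and all 74 averaged 1 TPM or more (TPM is a length-scaled share of the library). The study put microRNAs with or without a methyl mark into HCT116 cells, a human colorectal carcinoma line, in a derivative that lacks Dicer, the enzyme that cuts microRNA precursors to their mature form. Each of the 5 groups holds 1 library, and all 5, the control included, came from the Dicer-knockout background: a transfected negative control, native let-7a, let-7a labelled 19A as the methylated form, native miR-17, and miR-17 labelled 13A as the methylated form. The labels give no time after transfection, dose, batch, number of clones, kind of methyl group or oligonucleotide sequence.

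The mitochondrial ribosome translates the few messenger RNAs that mitochondrial DNA encodes, all of them for subunits of the respiratory chain and ATP synthase. Its RNA is made in the organelle, while its proteins are encoded in the nucleus, translated in the cytosol and imported. A microRNA guides Argonaute to target messenger RNAs mainly by pairing of its seed, bases 2 to 8, with the 3′ untranslated region (3′UTR), which lowers the target's level; let-7a is a classic repressor of growth and stem cell genes, and miR-17 belongs to a cluster that promotes proliferation.

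The mature human sequences of both microRNAs (RefSeq, GRCh38.p14) show the seed, in capitals, that a target must match; base 19 of let-7a and base 13 of miR-17, the numbers in the labels, are both A. The let-7a sequence is encoded by 3 genes, on chromosomes 9, 11 and 22, and the miR-17 sequence lies at chr13:91350618-91350640 on the plus strand.
hsa-let-7a-5p: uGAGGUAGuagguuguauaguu
hsa-miR-17-5p: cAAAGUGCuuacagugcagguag
Of 4 members with an 8mer match (bases 2 to 8 and an A opposite base 1) in an annotated 3′UTR, the following 3 are shown because MRPL24 and MRPL43 were the 2 large subunit genes that stood lowest with miR-17, and MRPS33 held the one let-7a 8mer among the members. In the longest annotated 3′UTR alone, a miR-17 8mer was in 2 of 71 members searched, beside 665 of 12084 genes. A let-7a 8mer was in 1 of 71 members, beside 517 of 12084 genes. These shares are not adjusted for 3′UTR length. The matched bases are in capitals, and the positions are from GENCODE 29 on GRCh38, each within 1 exon and on the minus strand, at chr1:156737303-156737327 for MRPL24, chr10:100986318-100986347 for MRPL43 and chr7:141005826-141005855 for MRPS33.
MRPL24, miR-17 site: gccaataaagaGCACTTTAtgagtc
MRPL43, miR-17 site: tgatgggctagGCACTTTAtatctgtgtga
MRPS33, let-7a site: agaaatactccCTACCTCAtgtaagtttca

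The libraries listed between 14173 and 14396 genes at 1 TPM or more, and the depth behind the values is unknown. With 1 library per group no difference below has a replicate check, so none is a test of a condition, and each is given as a difference of log2(TPM + 1), first library minus second. DICER1 ranged from 11.2 to 15.9 TPM, and no library with intact Dicer was analysed here to set this against. Of 7 epithelial markers, 6 reached 1 TPM in every library and VIL1 was listed at 0, while the leukocyte marker PTPRC and the fibroblast marker THY1 were listed at 0 in all 5. Of 5 fibroblast markers 1 reached 1 TPM in every library, and of 5 leukocyte markers 1 or 2 did. The summed level of the epithelial markers was 7169.9 to 8791.5 TPM, that of 5 fibroblast markers 11.2 to 16.9 TPM, that of 5 leukocyte markers 4.3 to 5.5 TPM and that of 2 endothelial markers 0.3 to 0.8 TPM. TPM is a share: mitochondrially encoded messenger RNAs held 12.62% in the control, 10% and 11.66% with native and methylated let-7a, and 10.9% and 9.36% with native and methylated miR-17, and a lower level of these RNAs cannot be told apart from a higher level of all others. In these bulk libraries a change in the share of some cells and a change in RNA per cell cannot be told apart either.

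All 74 genes were above 0 in every library. Together they held 5924.2 TPM in the control, 6500.3 and 6055.2 with native and methylated let-7a, and 6344.4 and 6591.9 with native and methylated miR-17, which is 0.592% to 0.659% of each library. The large subunit genes summed to 3702.7, 4056.8, 3744.3, 3847 and 4038.5 TPM in the same order of libraries, and the small subunit genes to 2221.5, 2443.5, 2310.9, 2497.4 and 2553.4 TPM. The control was thus the lowest library for either subunit, native let-7a was the highest for the large one and methylated miR-17 for the small one.

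Subunits that are assembled in equal copies, apart from the stalk protein, were listed at very unequal RNA levels. Mean TPM over the 5 libraries spanned 10 to 303.56 in the large subunit (median 65.79) and 18.82 to 267.58 in the small subunit (median 67.99). MRPL12, which forms the flexible stalk that recruits translation factors, was the most abundant, with 277.2 TPM in the control, 308.0 and 271.1 with native and methylated let-7a, and 319.3 and 342.2 with native and methylated miR-17. It was followed in the large subunit by MRPL51 (mean 239.46), the membrane-facing MRPL45 (201.64) and MRPL3 (166.44), a homologue of a core bacterial protein. The lowest large subunit genes were MRPL46, at 9.9, 9.7, 9.4, 8.9 and 12.1 TPM from the control to methylated miR-17, then MRPL22 (mean 18.42), which lines the exit tunnel, MRPL50 (30) and MRPL48 (30.02). In the small subunit MRPS34 led, with 260.4, 276.1, 251.3, 269.4 and 280.7 TPM, followed by MRPS18B (mean 229.5), MRPS23 (181.7) and MRPS26 (148.54). Its lowest were MRPS25, at 20.2, 17.5, 17.7, 19.7 and 19 TPM, MRPS18C (mean 20.92), MRPS11 (21.84) and MRPS14 (27.02). With means 30.4 times apart in the large subunit and the widest ratio between libraries at 1.90 (MRPS35), the genes differed more from each other than any of them did between libraries.

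**Figure D1:**
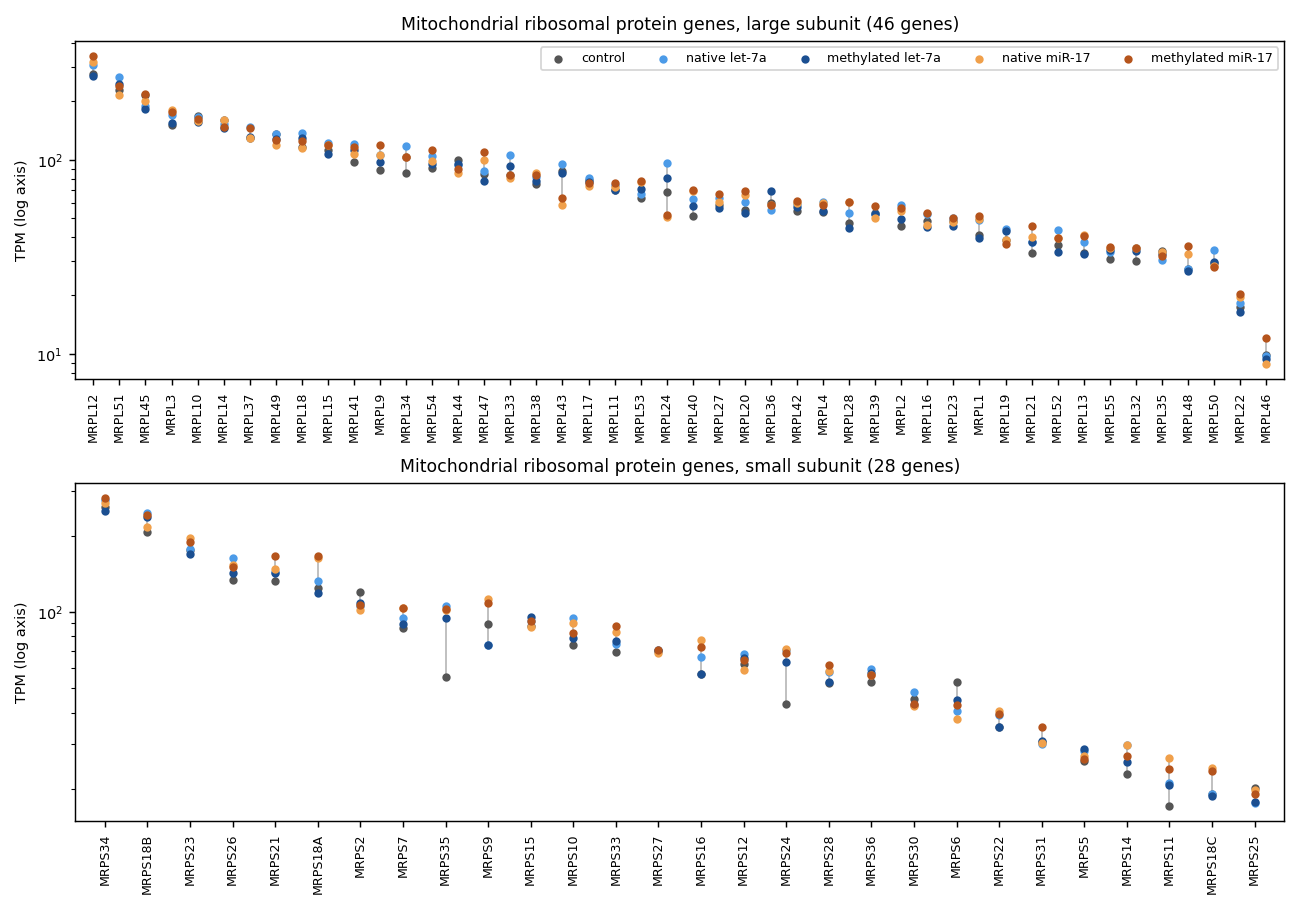
TPM (log axis) of each mitochondrial ribosomal protein gene in the 5 libraries, 1 point per library, with genes ordered by mean TPM within the large (46 genes) and the small subunit (28 genes). Levels run from near 10 TPM for MRPL46 to above 300 for MRPL12, and most genes have their 5 points close together, with MRPL24, MRPL43, MRPS35, MRPS24, MRPS11 and MRPS9 spread widest.

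Between libraries the members varied little. The highest library over the lowest gave a median ratio of 1.22 for the large subunit and 1.19 for the small subunit, beside 1.32 over 10757 genes averaging 5 TPM or more. The flattest member was MRPS27, a small subunit protein with pentatricopeptide repeats, at 69.8 TPM in the control, 69.8 and 70.4 with native and methylated let-7a, and 69.0 and 70.8 with native and methylated miR-17. A ratio of 1.5 or more was reached by 2 large subunit genes, MRPL24 and MRPL43, and by 4 small subunit genes, MRPS35, MRPS24, MRPS11 and MRPS9. Of the 10757 genes 2808 reached it. Differences are read below against the 14180 genes tested, those averaging 1 TPM or more, and as a rule of size, not a test, they are counted where TPM + 1 was at least 25% higher, or at least 20% lower, which is the same ratio. No member differed by 2-fold or more in any of the 8 comparisons. The genes set beside the members were not matched to them by level. The median gene tested had 14.9 to 16.3 TPM per library, and the median member 61.1 to 69.55 TPM. Whether genes at the members' level vary as little was not tested.

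With native let-7a most members were listed somewhat higher than in the control. Of the large subunit genes 37 of 46 were higher and 9 lower, and of the small subunit genes 21 of 28 were higher and 6 lower, beside 49.9% higher and 47.9% lower among all genes tested. The median difference was 0.13 for the large and 0.12 for the small subunit against 0.00 over all genes. At least 25% higher were 4 large and 4 small subunit genes and at least 20% lower was 1 small subunit gene, beside 12.9% and 11.8% of all genes, and 2-fold was reached by none, beside 1.23% higher and 1.18% lower of all genes. Among the highest were MRPL24 (0.49), a protein near the exit of the peptide tunnel, MRPL34 (0.47) and MRPL2 (0.36), a core protein close to the peptidyl transferase centre. MRPL34 had 85.0 TPM in the control, 118.3 and 103.2 with native and methylated let-7a, and 103.4 and 103.6 with native and methylated miR-17, so the control was its lowest library. The lowest differences were those of MRPL45 (-0.19), MRPL35 (-0.15) and MRPL36 (-0.12), and, in the small subunit, of MRPS6 (-0.38), MRPS9 (-0.28) and MRPS25 (-0.20).

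With methylated let-7a the members lay close to the control. In the large subunit 22 genes were higher and 23 lower (28 higher when each library is centred on the median gene), and in the small subunit 19 higher and 9 lower (15 higher when mitochondrially encoded genes are left out of the TPM), beside 41.0% and 56.1% of all genes. The median was -0.01 for the large subunit, which turned to 0.03 after centring, and 0.03 for the small subunit, against -0.04 over all genes. No large subunit gene and 2 small subunit genes, MRPS35 and MRPS24, were at least 25% higher and no member was 20% lower, where 9.03% and 10.3% of all genes were, and 1.18% and 0.987% reached 2-fold. The largest differences in the large subunit were those of MRPL34 (0.28), MRPL24 (0.24) and MRPL41 (0.21) upward and of MRPL45 (-0.24), MRPL14 (-0.13) and MRPL52 (-0.12) downward. In the small subunit MRPS11 (0.26) followed MRPS35 and MRPS24, and the lowest were MRPS9 (-0.27), MRPS6 (-0.24) and MRPS25 (-0.18).

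Set against each other, methylated let-7a was below native let-7a for most members. In the large subunit 39 of 46 genes were lower and 6 higher, with a median of -0.12, and in the small subunit 19 of 28 were lower and 9 higher (12 higher after centring or without mitochondrially encoded genes), with a median of -0.04. Over all genes 57.1% were lower and 39.8% higher, with a median of -0.03. The differences were small: MRPL52 alone was at least 20% lower and MRPL36 alone at least 25% higher, beside 7.15% and 5.24% of all genes, of which 0.980% and 0.952% reached 2-fold. MRPL52, a protein with no bacterial counterpart, had 36.3 TPM in the control, 43.7 and 33.3 with native and methylated let-7a, and 39.4 and 39.4 with native and methylated miR-17. MRPL36, a small protein that joins the large subunit late, ran the other way, with 59.9, 54.9, 69.2, 58.6 and 58.5 TPM, so that both its highest and its lowest library were let-7a libraries. Next to MRPL52 came MRPL1 (-0.29) and MRPL28 (-0.26), and in the small subunit MRPS10 (-0.26), MRPS14 (-0.23) and MRPS16 (-0.22) were lowest, while MRPS6 (0.14), MRPS33 (0.05) and MRPS2 (0.04) were highest. MRPL35 (0.10) and MRPL53 (0.08) were the other 2 high ones in the large subunit.

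With native miR-17 the members spread more widely around the control. In the large subunit 28 genes were higher and 18 lower, with a median of 0.10, and in the small subunit 20 were higher and 8 lower, with a median of 0.16, beside 51.5% higher, 46.5% lower and a median of 0.02 over all genes. Of the small subunit genes 8 were at least 25% higher and 1, MRPS6, was at least 20% lower. Of the large subunit genes 2 were that much higher (MRPL40 and MRPL28) and 2 that much lower (MRPL43 and MRPL24), where 18% and 15.6% of all genes were, and 1.69% and 1.73% reached 2-fold. MRPL40, a protein without a bacterial counterpart, had 51.3 TPM in the control, 63.1 and 58.1 with native and methylated let-7a, and 68.8 and 70.0 with native and methylated miR-17. MRPL28 had 47.4, 53.4, 44.3, 60.9 and 60.5 TPM, and MRPL13 followed with a difference of 0.30. MRPL44, a protein with a ribonuclease III fold, had the next lowest difference after MRPL43 and MRPL24 (-0.21), as MRPS2 (-0.23) and MRPS12 (-0.08), a protein of the decoding centre, had after MRPS6.

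With methylated miR-17 the members stood on the other side of the control from most genes. In the large subunit 34 genes were higher and 12 lower (39 higher after centring), with a median of 0.15, and in the small subunit 24 were higher and 4 lower (21 higher without mitochondrially encoded genes), with a median of 0.18. All genes had 42.1% higher, 56.3% lower and a median of -0.06. At least 25% higher were 7 large and 6 small subunit genes, and 2 large subunit genes, MRPL43 and MRPL24, were at least 20% lower, beside 15% and 25.3% of all genes, of which 1.32% and 2.40% reached 2-fold. After MRPL40 (0.44) came MRPL21 (0.44) and MRPL9 (0.42) in the large subunit, and the lowest after MRPL43 and MRPL24 was MRPL44 (-0.15). In the small subunit the lowest were MRPS6 (-0.30), MRPS2 (-0.16) and MRPS25 (-0.08).

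Methylated miR-17 also stood above native miR-17 for most large subunit genes, unlike the bulk of genes. Of these 34 were higher and 11 lower (45 higher after centring and 30 without mitochondrially encoded genes), with a median of 0.05, where 28.4% of all genes were higher and 69.0% lower, with a median of -0.09. The small subunit had 16 higher and 12 lower (24 higher after centring), and its median of 0.01 turned to -0.02 when mitochondrially encoded genes were left out. MRPL46, the least abundant member, was the one gene at least 25% higher (8.9 TPM native and 12.1 TPM methylated, a difference of 0.40) and none was 20% lower, beside 3.63% and 11.2% of all genes, of which 0.684% and 0.994% reached 2-fold. The next highest were MRPL39 (0.20) and MRPL16 (0.19) in the large subunit, and MRPS31 (0.20), MRPS6 (0.18) and MRPS21 (0.16) in the small one. The lowest were MRPL14 (-0.13), MRPL35 (-0.06) and MRPL19 (-0.05), and MRPS11 (-0.14), MRPS14 (-0.14) and MRPS10 (-0.13).

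The methylated form thus lay on opposite sides of the native form for the 2 microRNAs in many members. In 39 of 74 genes, 29 large and 10 small subunit genes, the methylated library was below the native one for let-7a and above it for miR-17, beside 18.8% of all genes tested. The reverse order held for 5 members, MRPL35, MRPL36, MRPS25, MRPS5 and MRPS9, beside 29.7% of all genes. In 18 members the methylated form was lower for both microRNAs and in 10 it was higher for both, beside 37.0% and 8.92% of all genes. These 4 libraries share no library between the let-7a and the miR-17 pair, but each pair is 1 library against 1.

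**Figure D2:**
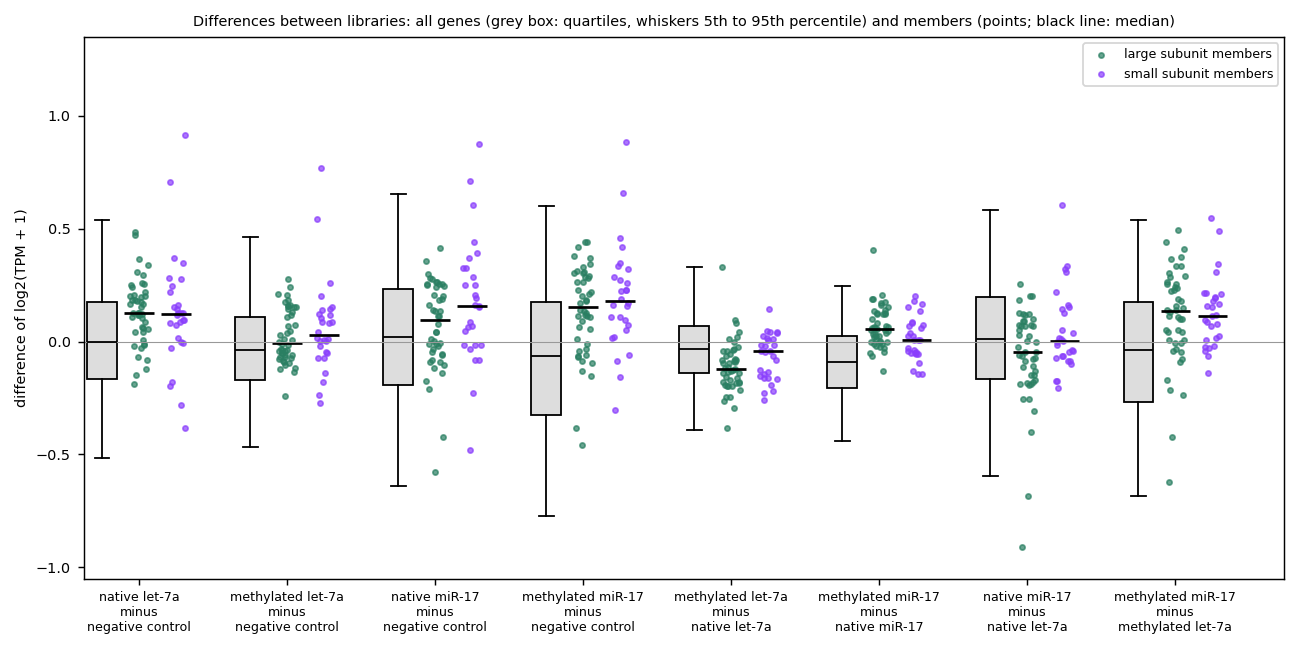
Differences of log2(TPM + 1) in 8 comparisons for all 14180 genes tested (grey boxes with the median and quartiles, whiskers at the 5th and 95th percentiles) and for the large (green) and small (purple) subunit genes, each point 1 gene and each black line the median. Most members lie within the spread of all genes; the large subunit median is -0.12 for methylated against native let-7a and 0.05 for methylated against native miR-17.

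Between the 2 microRNAs, the native libraries differed little and the methylated ones more. Native miR-17 against native let-7a gave 20 higher and 25 lower large subunit genes and 14 higher and 13 lower small subunit genes, beside 51.2% and 46.8% of all genes. Medians were -0.05 and 0.00 against 0.01 over all genes, and the small subunit median of 0.002 turned to -0.01 after centring. At least 20% lower were 3 large subunit genes and at least 25% higher were 3 small subunit genes, beside 13.5% and 15% of all genes, of which 1.45% and 1.30% reached 2-fold. The 3 lower ones were MRPL24 (-0.91), MRPL43 (-0.68) and MRPL33 (-0.40), and the 3 higher ones MRPS9 (0.61), MRPS18C (0.33) and MRPS11 (0.32). The other ends of the range were MRPL48 (0.26), MRPL53 (0.20) and MRPL47 (0.20) upward and MRPS12 (-0.21), MRPS18B (-0.18) and MRPS30 (-0.17) downward. Methylated miR-17 against methylated let-7a gave 34 higher and 12 lower large subunit genes (median 0.14) and 22 higher and 6 lower small subunit genes (median 0.11; 25 higher after centring and 19 without mitochondrially encoded genes). All genes had 44.5% higher and 53.6% lower, with a median of -0.04. Here 7 large and 3 small subunit genes were at least 25% higher and 2 large subunit genes, again MRPL24 (-0.62) and MRPL43 (-0.42), were at least 20% lower, beside 13.1% and 20.8% of all genes, of which 1.21% and 1.78% reached 2-fold. MRPL47 (0.49), MRPL28 (0.44) and MRPL48 (0.41) led the large subunit and MRPS9 (0.55), MRPS18A (0.49) and MRPS16 (0.34) the small one, whose lowest were MRPS5 (-0.14), MRPS6 (-0.06) and MRPS15 (-0.04).

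MRPL47, a large subunit protein near the tunnel exit, was the highest of these, with 84.6 TPM in the control, 87.2 and 78.0 with native and methylated let-7a, and 100.3 and 110.3 with native and methylated miR-17. MRPL48 had 27.5, 27.3, 26.7, 32.8 and 35.8 TPM in the same order. Both stood higher in either miR-17 library than in the other 3. Both miR-17 libraries lay above both let-7a libraries in 28 of 74 members, 16 large and 12 small subunit genes, and below them in 13, beside 27.1% and 29.8% of all genes. The control was below the other 4 libraries in 30 members, 15 of each subunit, beside 21.1% of all genes, and above them in 6, MRPL10, MRPL35, MRPL44, MRPS2, MRPS6 and MRPS25, beside 26.5%. Methylated miR-17 was the top library in 28 members, 20 of them large subunit genes, beside 12.6% of all genes, and native let-7a in 23, beside 20.4%. Methylated let-7a was the bottom library in 20, of which 16 were large subunit genes, beside 18.7%.

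**Figure D3:**
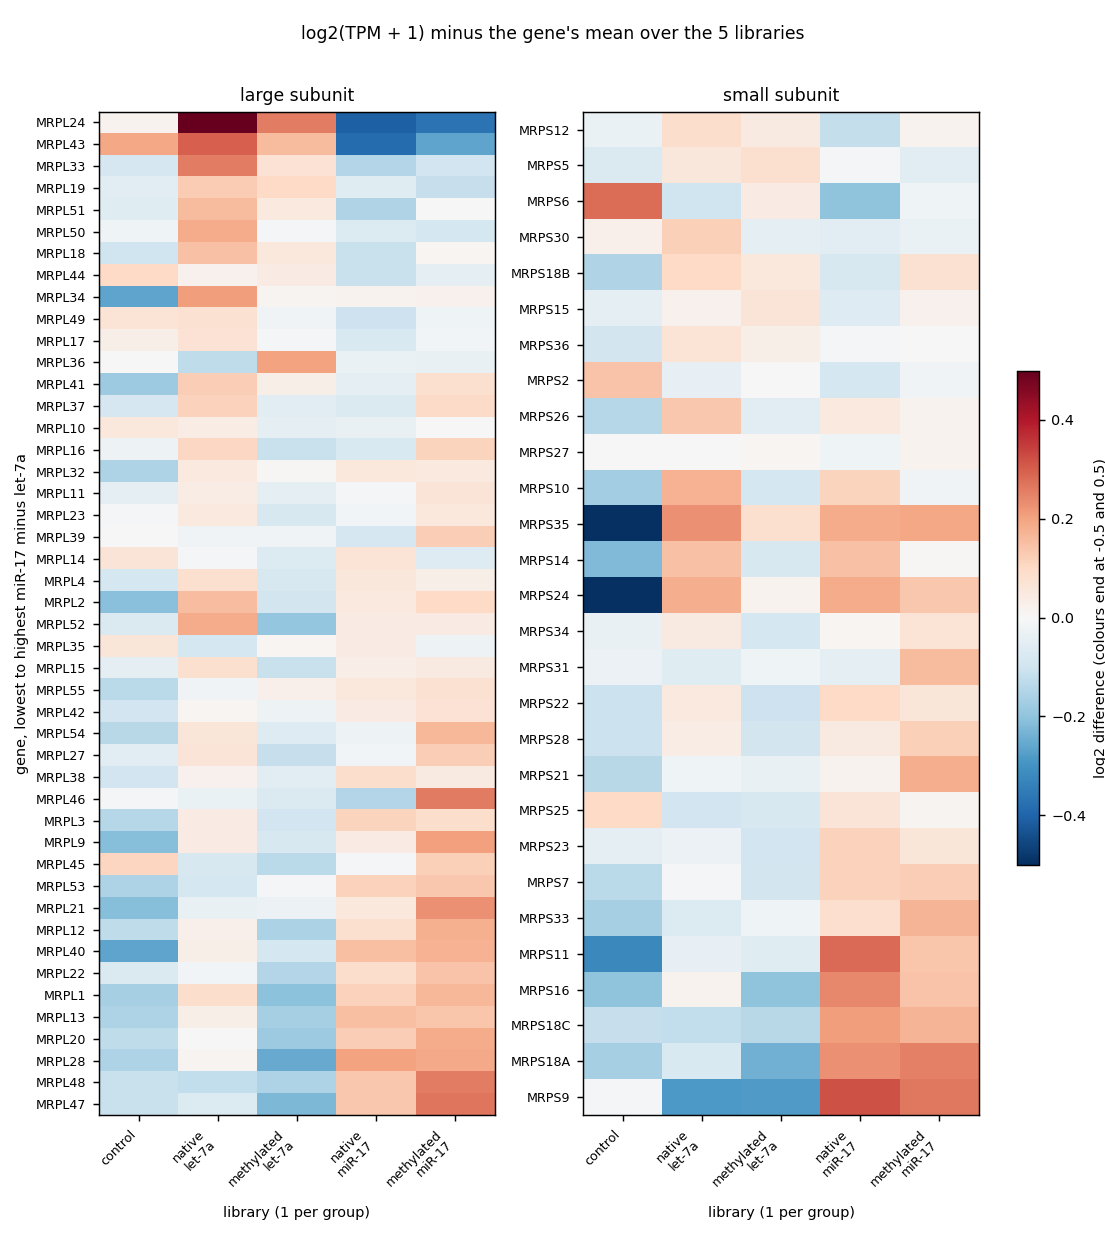
log2(TPM + 1) of each member minus its own mean over the 5 libraries (colour, ending at -0.5 and 0.5; columns are libraries, 1 per group), with genes of each subunit ordered from the lowest to the highest difference between the miR-17 and the let-7a libraries. MRPL24 and MRPL43 stand at the low end of the large subunit and MRPS9 and MRPS18A at the high end of the small one, and MRPS35 and MRPS24 are low in the control alone.

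MRPL24 and MRPL43 were the large subunit genes with the lowest differences from the control for either form of miR-17, and both carry the miR-17 8mer printed above. MRPL24 had 68.0 TPM in the control, 95.7 and 80.5 with native and methylated let-7a, and 50.5 and 51.9 with native and methylated miR-17. MRPL43, which has no bacterial counterpart, had 88.0, 94.7, 85.8, 58.6 and 63.8 TPM in the same order. In either gene both miR-17 libraries were below the other 3, with differences from the control of -0.42 and -0.38 for MRPL24 and of -0.58 and -0.46 for MRPL43, and the native and methylated miR-17 libraries were within 0.04 and 0.12 of each other. MRPL24 was also the large subunit gene furthest above the control with native let-7a. The 8mer lies in 2 of 2 annotated 3′UTRs of MRPL24 and in 4 of 9 of MRPL43, not in the longest one, and the files do not show which isoforms the cells made. Exons of MRPL43 overlap those of SEMA4G and TWNK on the opposite strand.

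Members with a seed match were set beside members without one. A miR-17 match (GCACTTT for bases 2 to 8, or CACTTTA for bases 2 to 7 and an A) was found in an annotated 3′UTR of 18 of the 71 members searched, or 25.4%, beside 33.0% of 12084 genes. A let-7a match (CTACCTC or TACCTCA) was found in 4, MRPL42, MRPS11, MRPS25 and MRPS33, or 5.63%, beside 18.8%. The members' longest annotated 3′UTRs were short, with a median of 462 bases beside 1332 over all genes searched (405 in the large and 569 in the small subunit), and the shares are not adjusted for length. With native miR-17 the 18 members with a match had a median difference from the control of 0.13, 12 higher and 6 lower, and the 53 without one a median of 0.11, 34 higher and 19 lower; with methylated miR-17 the medians were 0.14 and 0.18. In the large subunit alone the medians with native miR-17 were 0.05 with a match and 0.11 without. In the small subunit they went the other way, at 0.21 with a match and 0.11 without. Over all genes searched these medians were -0.08 with a match and 0.06 without. The 4 members with a let-7a match had a median of 0.10 with native let-7a, 3 higher and 1 lower, against 0.13 in the 67 without, while all genes with a match had -0.07 and those without 0.02. MRPS33, with the let-7a 8mer in 1 of its 5 annotated 3′UTRs, had 69.7 TPM in the control, 74.6 and 77.0 with native and methylated let-7a, and 83.1 and 88.1 with native and methylated miR-17, and was lowest in the control.

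Of the members with a miR-17 match but no 8mer, MRPL17 is shown, with the matched bases in capitals, because native miR-17 was its lowest library. Its match lies at chr11:6682043-6682072 on the minus strand.
MRPL17, miR-17 site: aggcctttggaGCACTTTtactctctgaga
MRPL17 had 78.5, 80.9, 76.5, 73.0 and 76.2 TPM from the control to methylated miR-17, and MRPL49 had 135.3, 135.9, 127.2, 119.7 and 126.8 TPM, so native miR-17 was the lowest library of MRPL49 too. Native miR-17 was the lowest library in 16 of 74 members, beside 9.52% of all genes. Most of these members, such as MRPL18, MRPL33 and MRPL51, had no miR-17 match in a 3′UTR. MRPL42, the third member with a miR-17 8mer, in 1 of 5 annotated 3′UTRs, had 54.6, 58.9, 57.4, 60.1 and 61.5 TPM and was lowest in the control.

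**Figure D4:**
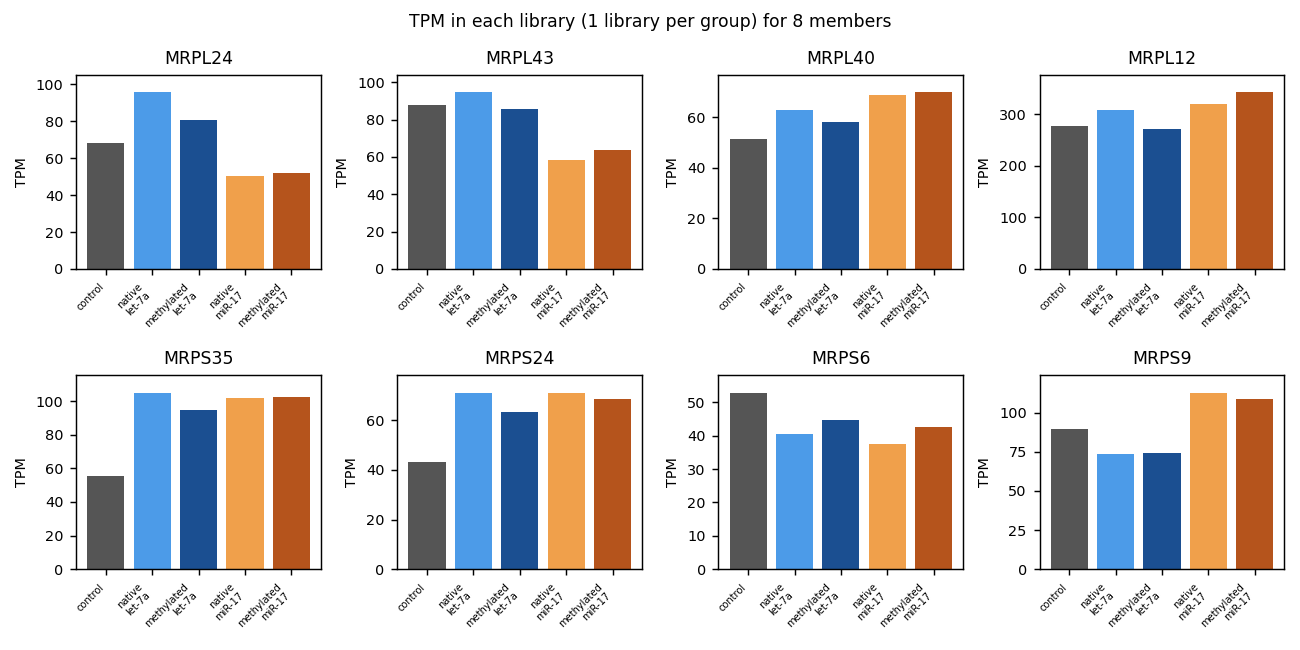
TPM (bars from 0, 1 library per group, no error bar possible) of 8 members in the 5 libraries. MRPL24 and MRPL43 are lowest in both miR-17 libraries, MRPL40 is lowest in the control, MRPS9 is highest in both miR-17 libraries, MRPS35 and MRPS24 are low in the control library alone, and MRPS6 is highest there.

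In the small subunit the members that stood furthest from the control did so in all 4 microRNA libraries. MRPS35, a protein of the small subunit without a bacterial counterpart, had 55.2 TPM in the control, 105.1 and 94.9 with native and methylated let-7a, and 102.1 and 102.7 with native and methylated miR-17, with differences of 0.92, 0.77, 0.88 and 0.88. MRPS24, the homologue of a bacterial protein at the messenger RNA entry, had 43.1, 70.9, 63.2, 71.1 and 68.6 TPM. MRPS6 was the opposite, with 52.9, 40.4, 44.7, 37.6 and 42.7 TPM, the control being its highest library. In MRPS35 and MRPS24 the 4 microRNA libraries lay closer to each other than any of them to the control, while in MRPS6 methylated let-7a was about as far from native miR-17 as from the control. The 4 differences of each gene share that 1 control library. Against the 2 libraries of the other microRNA in place of the control, MRPS35 differed by -0.11 and MRPS24 by -0.14 with methylated let-7a, and MRPS6 by 0.01 with native let-7a.

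MRPS24 and MRPS6 overlap exons of other genes on the same strand, and whether this affects their values was not tested. URGCP-MRPS24, a readthrough transcript that contains MRPS24 exons, was listed at 6.0 TPM in the control, 26.6 and 28.6 with native and methylated let-7a, and 0 and 21.5 with native and methylated miR-17. Added to MRPS24 it gave 49.1, 97.5, 91.8, 71.1 and 90.1 TPM, in which the control was again lowest but native miR-17 was no longer level with the other microRNA libraries. MRPS6 shares exons on the same strand with SLC5A3, a myo-inositol transporter gene, whose 2 rows had 31.0 and 31.2 TPM in the control and between 7.9 and 16.4 TPM in the other 4 libraries. How the deposited values divide reads between such genes was not tested. In GENCODE 29, in which 72 of the 74 members were found, 11 had a same-strand exon overlap with another gene and 24 an overlap on the opposite strand. MRPS35 and MRPL24 had neither. Overlaps were not counted over all genes, so whether these shares are unusual was not tested.

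MRPS9 and 2 of the 3 MRPS18 paralogs, MRPS18A and MRPS18C, were higher in both miR-17 libraries than in both let-7a libraries. MRPS9, a core protein of the head of the small subunit, had 89.8 TPM in the control, 73.8 and 74.1 with native and methylated let-7a, and 112.9 and 108.7 with native and methylated miR-17, so the control lay between the microRNAs and the 2 forms of each were alike. Human cells have 3 paralogs of bacterial protein S18, and in ribosome structures MRPS18A sits in the large subunit while MRPS18B and MRPS18C sit in the small one. MRPS18A had 124.4, 132.2, 118.2, 163.8 and 166.5 TPM, and MRPS18C, at a much lower level, had 19.1, 19, 18.8, 24.2 and 23.5 TPM. Both were higher in the miR-17 libraries than in the other 3. MRPS18B did not share this order: its values were 206.4, 245.2, 237.6, 216.8 and 241.5 TPM, with native miR-17 closest to the control. MRPS11 had 17.1, 21.0, 20.7, 26.5 and 23.9 TPM, lowest in the control and highest in the miR-17 libraries, and MRPS16 had 56.8, 66.4, 56.9, 77.5 and 72.5 TPM. MRPS36, which carries a ribosomal name but is now known as a subunit of the 2-oxoglutarate dehydrogenase complex, had 52.8, 59.2, 57.5, 56.2 and 56.5 TPM, with the control lowest by a small margin.

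The members can be sorted into proteins inherited from the bacterial ribosome and proteins without a bacterial homologue, and these classes are described apart. With native let-7a the 29 large subunit genes with a bacterial homologue had a median of 0.15 against the control (25 higher, 4 lower), and the 17 without one had 0.11 (12 higher, 5 lower). For methylated against native let-7a the medians were -0.14 and -0.09, and for methylated against native miR-17 they were 0.05 and 0.12, with 20 of 29 and 14 of 17 higher. With native miR-17 the medians were 0.14 and 0.01, and in the small subunit 0.25 for 17 genes with a homologue and 0.09 for 11 without. The 11 were sorted by symbol. They include MRPS36, not a ribosomal protein as said above, whose own difference of 0.09 is their median. They also include MRPS30, which ribosome structures place in the large subunit. Other comparisons did not all share a sign: methylated let-7a against the control had large subunit medians of -0.01 with a homologue and 0.01 without, and native miR-17 against native let-7a had 0.00 and -0.11 in the large and 0.00 and -0.02 in the small subunit. Members of either class lay at both ends of the range, MRPL24 and MRPL43 among the lowest and MRPL28 and MRPL40 among the highest.

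A further 7 proteins of the same ribosome go by other symbols. Of these genes 3 were higher and 4 lower with native let-7a (median -0.04), 6 higher and 1 lower with methylated miR-17 (median 0.13), and all 7 were lower with methylated than with native let-7a (median -0.11). DAP3, a GTP-binding protein of the small subunit, had 73.1, 70.5, 67.4, 74.2 and 80.2 TPM from the control to methylated miR-17. PTCD3, a pentatricopeptide repeat protein, had 15.3, 14.8, 13.4, 15.0 and 14.2 TPM, and CHCHD1 had 59.7, 56.4, 55.7, 61.8 and 69.9 TPM. These 3 and AURKAIP1 belong to the small subunit; AURKAIP1 had 136.7, 153.2, 142.0, 159.0 and 149.4 TPM. Of the large subunit, GADD45GIP1 had 232.4, 299.9, 281.4, 212.3 and 246.8 TPM, the widest spread of the 7, highest in both let-7a libraries. ICT1, a peptidyl-tRNA hydrolase, had 138.5, 126.7, 110.7, 137.3 and 149.1 TPM, and MRP63 had 50.3, 63.8, 54.1, 65.4 and 62.7 TPM.

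The factors that build and serve the ribosome had medians from -0.14 to 0.10 in the comparisons. Of 26 assembly factors 20 were higher than the control with native let-7a (median 0.08) and 14 with methylated miR-17 (median 0.03), where 49.9% and 42.1% of all genes were. METTL17, which binds the assembling small subunit, was the highest with native let-7a (0.36), and MTG1, a GTPase of large subunit assembly, was the highest with native miR-17 (0.64), while RPUSD4, a pseudouridine synthase, was the lowest there (-0.37). Of 15 translation factors 13 were lower with methylated let-7a (median -0.11), where 56.1% of all genes were, and 10 were higher with native let-7a (median 0.04). OXA1L, the inner-membrane insertase for new mitochondrial proteins, had 146.9, 113.2, 123.6, 160.0 and 173.6 TPM from the control to methylated miR-17, which puts the control between the microRNAs as in MRPS9. Of 20 mitochondrial aminoacyl-tRNA synthetases 19 were lower with methylated than with native let-7a (median -0.14), where 57.1% of all genes were, and 13 were lower with methylated than with native miR-17 (median -0.11), a share below the 69.0% of all genes. NARS2, which charges the asparagine tRNA, had 10.3, 21.8, 20.2, 21.5 and 22.7 TPM, low in the control alone as MRPS35 was. Of 23 genes of mitochondrial DNA and RNA maintenance, 17 were lower with methylated miR-17 (median -0.05, near the -0.06 over all genes, of which 56.3% were lower), and FASTK, a mitochondrial RNA-binding protein, had 48.3, 44.6, 44.7, 26.0 and 26.7 TPM, lowest in both miR-17 libraries as MRPL24 and MRPL43 were.

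The messenger RNAs that this ribosome translates are encoded in mitochondrial DNA. All 13 mitochondrially encoded messenger RNAs were lower than the control with native let-7a (median -0.30), native miR-17 (median -0.21) and methylated miR-17 (median -0.42), and 11 of 13 with methylated let-7a (median -0.10). The large subunit median was above 0 in the first 3 of these comparisons and slightly below it, at -0.01, in the last. All 13 were higher with methylated than with native let-7a (median 0.21) and lower with methylated than with native miR-17 (median -0.24), in each case the side opposite to the large subunit median. With these RNAs left out of the TPM the large subunit median was 0.09 for native let-7a against the control, -0.09 for methylated against native let-7a and 0.03 for methylated against native miR-17. The nuclear genes of oxidative phosphorylation lay on the side of the mitochondrial ribosomal proteins in several comparisons. Of 71, 66 were higher with native let-7a (median 0.14), 67 with native miR-17 (median 0.22) and 69 with methylated miR-17 (median 0.30). With methylated against native let-7a 61 were lower (median -0.09). Of all genes 49.9%, 51.5% and 42.1% were higher and 57.1% lower. In 2 others they lay apart from the large subunit. With methylated let-7a against the control 49 were higher (median 0.07), beside a large subunit median of -0.01 and 41.0% of all genes. With native miR-17 against native let-7a 49 were higher (median 0.05), beside a large subunit median of -0.05 and 51.2% of all genes. NDUFB5, a complex I subunit, had 19.6, 38.4, 34.7, 37.6 and 39.5 TPM, again low in the control alone. The proteins of the cytosolic ribosome were higher than the control in 83 and 82 of 84 genes with native and methylated let-7a and in 81 and 83 with native and methylated miR-17, with medians of 0.17, 0.16, 0.16 and 0.30. Methylated against native let-7a gave 49 of them higher and 35 lower (median 0.01). Methylated against native miR-17 gave 82 of the 84 higher (median 0.14), where 28.4% of all genes were. In that comparison 60 of the 71 nuclear oxidative phosphorylation genes were higher too (median 0.08), so the large subunit genes were not alone in this.

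**Figure D5:**
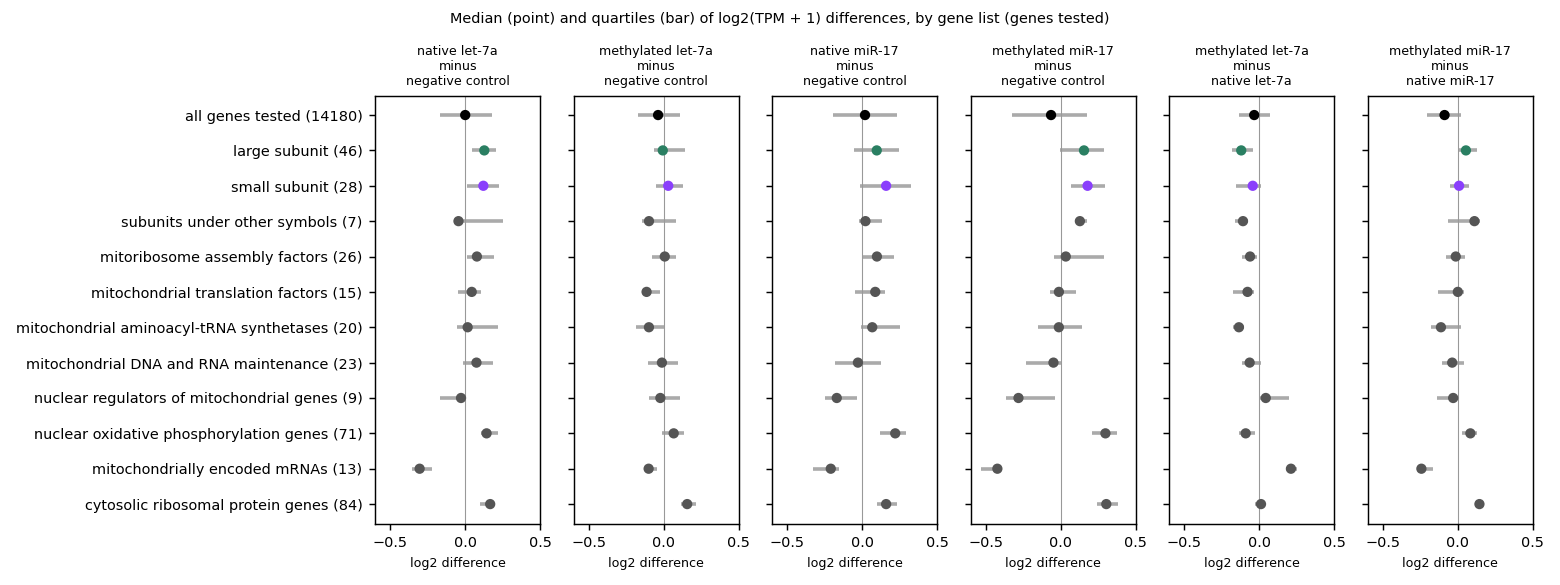
Median (point) and quartiles (bar) of the log2(TPM + 1) differences in 6 comparisons, for all genes tested, the 2 subunits and 9 related gene lists, with the number of genes tested in parentheses. The mitochondrially encoded messenger RNAs lie opposite to the large subunit at 0.21 against -0.12 for methylated against native let-7a and at -0.24 against 0.05 for methylated against native miR-17.

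Nuclear regulators of mitochondrial genes were mostly lower than the control with miR-17. Of 9 tested, 3 were higher with native let-7a, 1 with native miR-17 (median -0.17) and 0 with methylated miR-17 (median -0.28). Of all genes 49.9%, 51.5% and 42.1% were higher, with medians of 0.02 for native and -0.06 for methylated miR-17. YY1, a zinc finger factor whose motif is found in many promoters of ribosomal and respiratory genes, had 76.3, 59.4, 68.2, 58.9 and 54.0 TPM from the control to methylated miR-17. GABPA, the DNA-binding subunit of an ETS-family factor, had 30.2, 29.6, 28.8, 29.4 and 29.4 TPM, NRF1 had 18.9, 18.9, 22.2, 16.8 and 17.4 TPM, and the coactivator PPARGC1A was listed at 0 in all 5.

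Motifs for 3 of these factors were searched in the promoters of the members. In the 300 bases around the annotated start (250 before and 50 after; RefSeq, GRCh38.p14), 65 of the 74 members were matched and both strands were searched. The ETS letters CCGGAAG were in 27 promoters (41.5%), beside 19.2% of 9531 promoters of genes tested and 10.7% of 27305 promoters in all. The YY1 letters AAGATGGCG were in 13 (20%), beside 4.11% and 1.85%, and the NRF1 motif in 6 (9.23%), beside 11.8% and 6.28%. At least 1 of the 3 was in 61.5% of the large and 61.5% of the small subunit promoters, beside 31.2% of promoters of genes tested. Both the ETS and the YY1 letters were in 4, those of MRPL38, MRPL52, MRPS10 and MRPS18A, without overlap, beside 87 of the 9531 promoters of genes tested. The promoters of MRPS10, at chr6:42217812-42218111, and of MRPS18A, at chr6:43687742-43688041, both on the minus strand, are shown with these letters in capitals because in each the ETS letters come first and the YY1 letters follow close to the start.
MRPS10 promoter: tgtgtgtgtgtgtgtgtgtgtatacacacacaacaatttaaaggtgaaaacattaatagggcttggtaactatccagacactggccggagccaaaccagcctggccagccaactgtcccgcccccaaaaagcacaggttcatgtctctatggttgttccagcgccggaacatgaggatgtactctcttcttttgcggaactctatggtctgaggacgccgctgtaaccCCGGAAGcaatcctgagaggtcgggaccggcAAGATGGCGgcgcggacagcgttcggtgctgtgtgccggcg
MRPS18A promoter: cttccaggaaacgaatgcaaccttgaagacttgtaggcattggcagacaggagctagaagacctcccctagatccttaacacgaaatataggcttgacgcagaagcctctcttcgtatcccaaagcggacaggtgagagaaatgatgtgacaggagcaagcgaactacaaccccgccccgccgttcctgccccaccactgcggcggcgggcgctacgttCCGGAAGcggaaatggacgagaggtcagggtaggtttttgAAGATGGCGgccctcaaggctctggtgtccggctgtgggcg
Members with and without the letters were alike in some comparisons and not in others. With native miR-17 the 27 members with the ETS letters had a median of 0.19 (21 higher, 6 lower) and the 38 without 0.03 (21 higher, 17 lower), and with native let-7a the medians were 0.12 and 0.12. The 13 with the YY1 letters and the 52 without had medians of 0.14 and 0.12 with native miR-17. The 6 with the NRF1 motif and the 59 without had medians of -0.01 and 0.14 with native miR-17. With native let-7a these were -0.10 (2 higher, 4 lower) and 0.13 (49 higher, 9 lower). MRPS10 had 73.8, 94.2, 78.5, 90.2 and 82.4 TPM from the control to methylated miR-17, with both native forms above both methylated forms, an order that MRPS18A, given above, did not share.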

How the data were processed

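RNA of 5 HCT116 Dicer-knockout cultures, 1 library per group, was isolated with Isogen, and the strand-specific libraries were depleted of ribosomal RNA, per the labels' protocols. The authors deposited gene-level TPM values with 1 decimal, and each column sums to about 1000000, so read counts, intervals and detection floors cannot be had. The genome build was hg19, per the submitters' processing notes; which aligner, counter and annotation served is not given in the sources used here. Groups were taken from the transfection labels, and 0 sample columns were left unmapped.

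Differences of log2(TPM + 1) were computed for 8 library pairs over 14180 genes averaging 1 TPM or more, with counts of genes at least 25% higher, 20% lower or 2-fold apart in TPM + 1 as rules of size (Python 3.11.15, pandas 2.3.3, NumPy 2.4.6). The pseudocount of 1 understates differences of low genes. Only the step that counts differences was tested on simulated data, made from the control library with planted changes and no noise. Members and gene lists were chosen with earlier results of these data known. Named members are the 4 highest and 4 lowest by mean TPM in each subunit, the 3 highest and 3 lowest differences per comparison among those averaging 5 TPM or more, the MRPS18 paralogs, MRPS36 and members with a seed match; of other lists, the extremes and all subunits under other symbols. Others, such as MRPL17 and MRPL49 by their values and the flattest member, were chosen after their values were seen. Seed matches were searched in 3′UTRs of at least 50 bases (GENCODE 29, GRCh38, another build than the values) and motifs in RefSeq promoters. One result on sequence around the matches is not reported here. The alternatives were pseudocounts of 0.1 and 5, no filter or a filter at 5 TPM, TPM without mitochondrially encoded genes, centring on the median gene, subunits by ribosome structure, and the other microRNA's libraries in place of the control.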

Additional observations from a re-analysis of the deposited data

Results flagged for a closer look

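The methylated and the native libraries stood in opposite order for the 2 microRNAs. In the large subunit the median of methylated minus native was -0.12 for let-7a and 0.05 for miR-17, so the 2 medians lay -0.1744 apart on the log2 scale (let-7a minus miR-17). In the small subunit they were -0.04 and 0.01, which is -0.0522 apart, and the second of these turned to -0.02 without mitochondrially encoded genes in the TPM. The nuclear oxidative phosphorylation genes stood in the same order, with medians of -0.09 for let-7a and 0.08 for miR-17. Over all genes both medians were below 0, at -0.03 and -0.09. With 1 library per group the difference was not tested. The share of mitochondrially encoded messenger RNAs moved opposite to the large subunit median. From native to methylated it went from 10% to 11.66% of the TPM for let-7a and from 10.9% to 9.36% for miR-17. Without these genes the large subunit medians were -0.09 and 0.03.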

How the results depend on the processing

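No paired analysis was possible because each group holds 1 library. The reference library decided most of what moved. With the 2 libraries of the other microRNA in place of the control, native let-7a had a large subunit median of -0.0054 in place of 0.13 (22 members higher) and a small subunit median of 0.0017 (0 members at least 25% higher). Methylated let-7a had medians of -0.11 (13 higher; 2 at least 25% higher, 5 lower) and -0.13 (8 higher; 0 and 4). Native miR-17 had medians of 0.0174 (0 at least 25% higher) and 0.0540 (5 higher, 0 lower). Methylated miR-17 had 0.0653 and 0.0630 (2 at least 25% higher in either subunit). Under this reference MRPS6 turned to 0.0087 for native let-7a, and MRPS24 to -0.14 and MRPS35 to -0.11 for methylated let-7a. Without mitochondrially encoded genes, methylated miR-17 against the control had medians of 0.10 (4 large subunit members at least 25% higher) and 0.13 (1 small subunit member lower), and native let-7a had 2 small subunit members at least 20% lower. After centring, methylated miR-17 had 0.22 against the control (16 and 1) and 0.24 (10 higher), and 0.14 and 0.10 against native miR-17; native miR-17 against native let-7a had 1 small subunit member higher. A pseudocount of 5 left 0 large subunit members at least 25% higher for methylated against native let-7a and miR-17, and 1 small subunit member for native miR-17 against native let-7a. The cause was not tested. Over all genes, 3501 passed these sizes between native let-7a and the control, 1917 with a pseudocount of 5, 5885 without a filter and 2154 at 5 TPM or more on average. In all 8 comparisons the count was lower with a pseudocount of 5 or at 5 TPM and higher without a filter. These directions follow from the settings: a stricter filter leaves fewer genes to count, no filter leaves more, and a larger pseudocount shrinks every ratio. The counts are not shares, since 14180 genes were counted at 1 TPM and 57773 without a filter. At 5 TPM methylated against native let-7a fell from 1757 to 653, and methylated miR-17 against the control from 5725 to 4145. Counting MRPS18A and MRPS30 as large subunit genes and leaving out MRPS36 moved no median by more than 0.05. With 1 library per group and unknown depth, no small difference can be set against sampling error.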
